A study of Mus musculus with 4 samples.

Results

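The genes described here encode receptors for acetylcholine. They are the 9 genes Chrm1, Chrm2, Chrm3, Chrm4, Chrm5, Chrna4, Chrna5, Chrna7 and Chrnb2, of 55422 gene IDs counted by single-nucleus RNA sequencing of adult mouse hippocampus. They were listed by name and found by their Ensembl IDs, and the list was made with earlier results of these data known. Control mice were Kat6a-f/f, in which loxP sites flank the histone acetyltransferase gene Kat6a. Kat6a-cKO mice carried the same floxed alleles together with NEX-cre, a Cre recombinase at the Neurod6 locus, which is active in excitatory neurons of the forebrain. The deletion is thus directed to excitatory neurons, interneurons and glia keep the floxed gene, and no group carried NEX-cre without floxed Kat6a. Each group had 2 libraries, and the labels do not say whether those came from separate animals, so that p-values measure only the spread between libraries. The series was made to study KAT6A deficiency and RSPO2 with Wnt signalling in CA3, by its title, which does not mention acetylcholine.

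Acetylcholine reaches the hippocampus mainly from the medial septum and the diagonal band. It acts on muscarinic receptors, which couple to G proteins, and on nicotinic receptors, which are cation channels assembled from several subunits. Chrm1, Chrm3 and Chrm5 encode muscarinic receptors that couple to Gq and phospholipase C, and Chrm2 and Chrm4 encode those that couple to Gi and lower cyclic AMP. Chrna7 encodes a subunit that can form a channel on its own, Chrna4 and Chrnb2 encode partners in the high-affinity heteromeric channel, and Chrna5 encodes an accessory subunit of such channels.

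The results turned mainly on Chrm3, Chrm2 and Chrna7, and the DNA just upstream of each is shown to give the starting point of the 3 transcripts. Each line holds the 250 bases before the RefSeq start on GRCm38.p6, written 5′ to 3′ on the strand of the gene, at chr6:36387834-36388083 (plus strand) for Chrm2, chr13:10360804-10361053 (minus strand) for Chrm3 and chr7:63212527-63212776 (minus strand) for Chrna7. Capitals mark every match, on either strand, to GGGCGG or to CACGTG or to TATAAA.
Chrm2: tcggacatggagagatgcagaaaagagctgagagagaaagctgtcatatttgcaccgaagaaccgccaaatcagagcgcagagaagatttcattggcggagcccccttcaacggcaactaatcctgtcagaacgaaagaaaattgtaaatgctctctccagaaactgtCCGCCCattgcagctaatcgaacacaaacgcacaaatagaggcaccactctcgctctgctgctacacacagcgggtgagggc
Chrm3: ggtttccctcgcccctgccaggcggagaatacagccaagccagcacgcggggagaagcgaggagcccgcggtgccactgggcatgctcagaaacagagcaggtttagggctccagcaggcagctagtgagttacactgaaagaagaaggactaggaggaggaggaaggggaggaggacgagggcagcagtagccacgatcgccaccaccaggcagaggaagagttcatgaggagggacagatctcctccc
Chrna7: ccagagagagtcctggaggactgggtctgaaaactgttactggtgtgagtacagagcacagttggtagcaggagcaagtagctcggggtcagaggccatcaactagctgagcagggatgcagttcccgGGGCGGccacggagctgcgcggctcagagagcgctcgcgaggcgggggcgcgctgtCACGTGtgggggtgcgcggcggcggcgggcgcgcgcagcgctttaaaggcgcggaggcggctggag
Chrm2 held GGGCGG on the opposite strand, Chrna7 held GGGCGG and CACGTG, and Chrm3 held none of the 3 words in this window. RefSeq promoters were matched for 8 of the 9 genes, with 9 promoters in all because Chrna5 has more than 1. GGGCGG stood in 5 of the 9, against 32.7% of 32851 promoters of the same length, CACGTG in 1 of the 9 (6.02% of all) and TATAAA in 0 of the 9 (12.4% of all). The number of CpG pairs was 25 for Chrna7, 12 for Chrm2 and 10 for Chrm3, against a median of 6 over all promoters. These matches describe the letters only. By GENCODE M21 (GRCm38), Chrm3 spans 485.4 kb of chromosome 13 (9875486 to 10360847, minus strand), Chrm2 140.3 kb of chromosome 6 (36388084 to 36528414, plus strand) and Chrna7 113.9 kb of chromosome 7 (63098692 to 63212569, minus strand), whereas the models of Chrm4 (chromosome 2, 91927249 to 91928688, plus strand) and Chrm5 (chromosome 2, 112479171 to 112480769, minus strand) are 1.44 and 1.599 kb long. Chrm1 lies on chromosome 19 (8663789 to 8683587, plus strand), Chrna4 on chromosome 2 (181018380 to 181043546, minus strand), Chrna5 on chromosome 9 (54980880 to 55007779, plus strand) and Chrnb2 on chromosome 3 (89746195 to 89764632, minus strand).

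The 4 libraries held 171323466 to 186897245 counts, where a count is 1 molecule tagged by a unique molecular identifier (UMI). Barcodes with at least 5000 UMIs numbered 7911 to 8442 per library, with median UMI counts of 13924 to 14666, and pairs of libraries shared 15 to 20 barcodes. After 1107 called doublets were removed, 31465 nuclei fell into 38 clusters, of which 24 with 27487 nuclei were named from marker genes in 12 classes, and 14 with 3978 nuclei stayed unnamed. The receptor genes themselves were left out of the clustering. An entry named ENSMUSGcre.1 passed the edgeR test as higher in Kat6a-cKO in CA1 and CA3 nuclei and in all nuclei. Its counts were too low for a test in the other classes fitted, among them CA2, dentate granule and mossy nuclei. Neurod6, the locus of NEX-cre, passed as lower in Kat6a-cKO in dentate granule nuclei (log2 fold change −0.90 ± 0.15, SE, adjusted p 0.0402, edgeR) and in no other class. Kat6a passed the threshold in no class (log2 fold change −0.04 ± 0.07 in CA1 and −0.04 ± 0.08 in CA3, SE). Counts are given per gene and not per exon, so a shortened Kat6a transcript would be counted like an intact one. Whether the transcript was shortened or the deletion complete was not tested. In sums over a class, fewer nuclei with a transcript and fewer transcripts per nucleus cannot be told apart, and shares of nuclei with a UMI are given for the main results.

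Chrm3, a Gq-coupled receptor gene, separated pyramidal and mossy nuclei from dentate granule nuclei. Levels are in CPM, the UMI counts of a gene scaled to one common total per class and library. They are given first for both Control libraries and then for both Kat6a-cKO libraries, each by replicate number, and SDs are over these 4 libraries and so span both genotypes. In CA1 pyramidal nuclei Chrm3 stood at 1623, 1589, 1481 and 1618 CPM (mean 1578 ± 66.2). In mossy cells of the dentate hilus it stood at 1256, 1346, 1364 and 1292 CPM (1314 ± 49.6), and in CA3 pyramidal nuclei at 1259, 1233, 1209 and 1253 CPM (1238 ± 22.6). All 4 CA1 values lay above all mossy and CA3 values, and the mossy and CA3 ranges overlapped. CA2 pyramidal nuclei (818 ± 121 CPM) and subicular and cortical excitatory nuclei (808 ± 109 CPM) overlapped each other and lay below CA3 in every library. Inhibitory nuclei followed at 642 ± 35.4 CPM and Cajal-Retzius nuclei at 335 ± 50.5 CPM, each apart from its neighbours in the order, although in the Cajal-Retzius class 19 of 102 nuclei held all 321 counts. Dentate granule nuclei, the most numerous class with 12281 nuclei, were at the bottom with 15.6, 18.3, 17.8 and 16.2 CPM, and their range overlapped those of astrocytes and oligodendrocyte precursors (OPC).

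The share of nuclei with a Chrm3 UMI followed the same split, after every nucleus was thinned to 5000 UMIs so that classes of different depth could be set side by side. At least 1 UMI was seen in 99.5% ± 1.00 of mossy, 95.7% ± 0.426 of CA3, 95.3% ± 1.73 of CA1 and 90.1% ± 4.13 of CA2 nuclei (SD, n = 4 libraries), and in 6.77% ± 0.334 of dentate granule nuclei. Astrocytes, the reference class for background, showed 10.8% ± 4.43. Without thinning the shares were 97.8% in CA1, 13.3% in dentate granule nuclei (median 11043 to 12013 UMIs per library) and 11.3% in astrocytes (median 5638 to 5731 UMIs). RNA free in the droplets carried much Chrm3: barcodes of 10 to 100 UMIs held 330 ± 14.2 CPM, far above the level in dentate granule nuclei. With the estimated free RNA subtracted, Chrm3 was 0 CPM in dentate granule nuclei and 1625 CPM in CA1. Free RNA was estimated at 6.97% to 8.64% of dentate granule counts, which would carry more Chrm3 than was counted there. The subtraction stops at 0, so a low level would also have come out as 0. The dentate value is read as background because it overlapped that of astrocytes, and a low level of its own cannot be told apart. In Cajal-Retzius nuclei 18.4% ± 5.00 of the thinned nuclei had a Chrm3 UMI, at a level of 335 CPM. In immature dentate nuclei the level was 130 ± 14.9 CPM, apart from that of mature granule nuclei in every library, and 33.1% ± 2.96 of nuclei had a UMI.

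**Figure D1:**
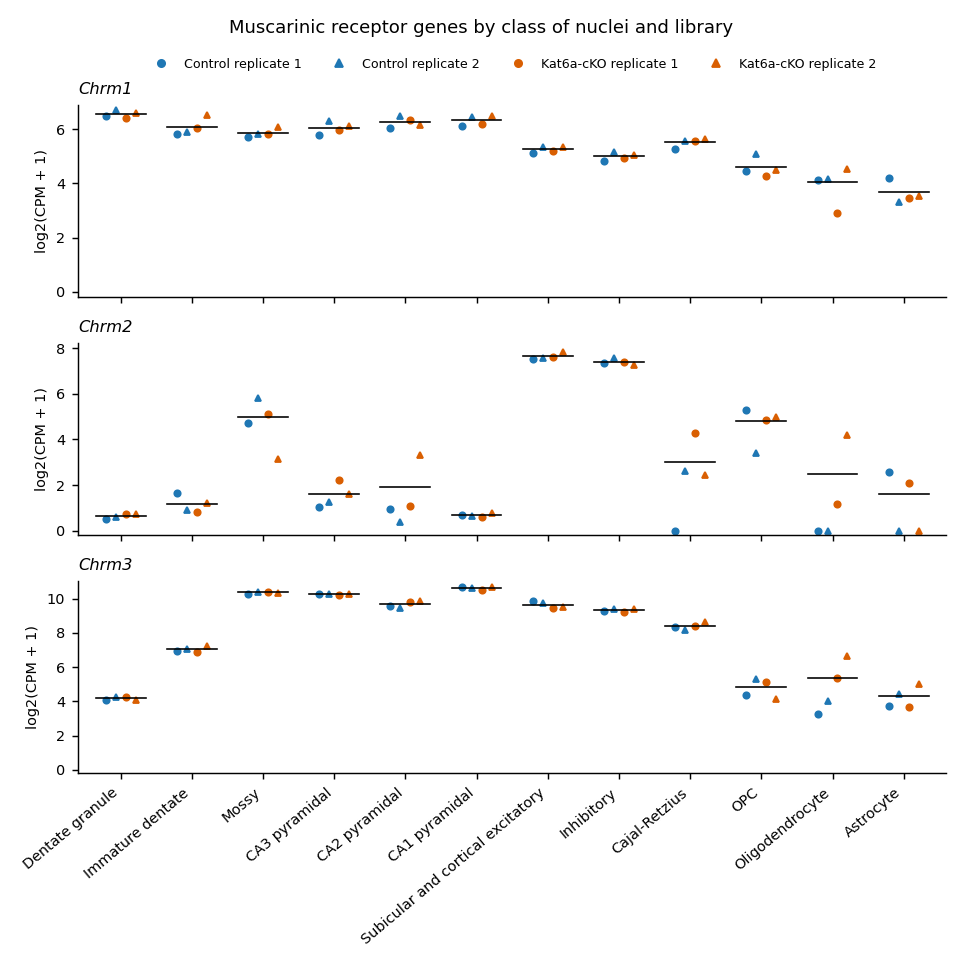
Level of Chrm1, Chrm2 and Chrm3 as log2(CPM + 1) in 12 classes of nuclei, with 1 point per library (blue, Control; orange, Kat6a-cKO) and a line at the log2 of the mean CPM plus 1. Chrm3 is high in mossy, CA3, CA2 and CA1 nuclei and low in dentate granule nuclei, Chrm2 is high in subicular and cortical excitatory and in inhibitory nuclei, and Chrm1 differs less between the excitatory classes.

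Differences between classes were tested with edgeR (quasi-likelihood test, library as a block, Benjamini-Hochberg adjustment over all genes). Chrm3 was higher in CA1 than in dentate granule nuclei by 6.63 ± 0.06 on the log2 scale (SE, adjusted p 2.85e-17), and the ratio of CPM within a library ran from 83.2 to 104. As the dentate value is read as background, these values are CA1 levels set against background. Against CA3 the CA1 level was higher by 0.34 ± 0.03 (adjusted p 1.46e-07), with ratios of CA3 over CA1 of 0.776, 0.776, 0.816 and 0.774. This smaller difference was 0.06 (adjusted p 0.165) when nuclei were put in classes by their highest marker score and not by cluster. The 3 CA1 clusters were themselves unequal: cluster 8 held 1976 ± 61.8 CPM, cluster 9 held 1514 ± 18.0 and cluster 13 held 844 ± 90.1, in that order in every library. The main CA3 cluster, number 4, held 1375 ± 24.1 CPM and cluster 23 held 612 ± 69.5 CPM. The spread of Chrm3 inside CA1 and inside CA3 was thus wider than the mean difference between the classes.

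Chrm1, the Gq-coupled receptor gene of principal neurons, was more even. Its levels were 89.1, 103, 84.2 and 95.9 CPM in dentate granule nuclei, 68.9, 86.3, 71.6 and 89.0 CPM in CA1 and 54.2, 77.6, 61.1 and 67.8 CPM in CA3. These ranges overlapped between neighbours in the order from dentate granule over CA1, CA2 (75.6 ± 10.2 CPM), immature dentate (67.5 ± 16.8) and CA3 to mossy nuclei (57.2 ± 6.88). Control replicate 1 and Kat6a-cKO replicate 1 were the low libraries of each group in all 3 of the first-named classes. Within libraries the ratio of CA3 over dentate granule was 0.609, 0.753, 0.726 and 0.707, below 1 in every library. CA3 was lower than dentate granule (log2 difference −0.43 ± 0.04, adjusted p 1.99e-07, edgeR), and CA1 was lower than dentate granule (−0.16 ± 0.04, adjusted p 0.00664). Inhibitory nuclei held 27.6, 34.2, 29.8 and 32.4 CPM, below every excitatory value of these classes, with a log2 difference from dentate granule of −1.66 ± 0.05 (adjusted p 7.7e-15). The thinned share of nuclei with a Chrm1 UMI was 36.5% ± 2.24 in dentate granule, 32.1% ± 3.94 in CA1 and 5.80% ± 1.66 in astrocytes (63.2%, 71.0% and 6.44% without thinning). Free RNA held 50.7 ± 1.18 CPM of Chrm1.

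Levels of different genes are set side by side here as CPM and per length. As CPM, Chrm3 led in CA1 with 1578, against 265 for Chrna7 and 78.9 for Chrm1. A UMI count is 1 molecule and need not grow with length, so the orders per length describe the scaled values only. In dentate granule nuclei Chrm1 had 4.70 CPM per kb of gene, Chrna7 1.22 and Chrm3 0.0349. In CA1 the same quantity was 3.99 for Chrm1, 3.25 for Chrm3 and 2.33 for Chrna7. In subicular and cortical excitatory nuclei it was 1.88 for Chrm1, 1.66 for Chrm3 and 1.41 for Chrm2. By these means Chrm1 led per kb of gene in these 3 classes, while in inhibitory nuclei Chrna7 led with 1.65, against 1.57 for Chrm1 and 1.32 for Chrm3. The order did not hold in every library between Chrm1 and Chrna7 in inhibitory nuclei. Nor did it between Chrm1 and Chrm3 in subicular and cortical excitatory nuclei. The order depended on the length used, since per kb of exon Chrm3 led in CA1 with 252 CPM per kb against 12.2 for Chrm1. Per kb of exon Chrm3 also led in subicular and cortical excitatory nuclei (129 against 5.75 for Chrm1) and in inhibitory nuclei (103 against 41.8 for Chrna7). In dentate granule nuclei Chrna7 led per kb of exon, with 30.7 against 14.3 for Chrm1. Whether reads in introns were counted is not given in the sources used here, so both are reported.

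Chrm5 and Chrm4 had few counts. Chrm5, which couples to Gq, had 77 counts in CA1 (0.804, 0.579, 0.582 and 0.858 CPM) and 0 counts of 72545459 in CA3. A floor of 3 counts over the CA3 sum allows 0.0414 CPM, so CA1 was at least 17.2-fold higher. In dentate granule nuclei the level was 0.0323 ± 0.0325 CPM, and the log2 difference of CA1 from it was 4.32 ± 0.48 (adjusted p 3.15e-06, edgeR). Chrm4, which couples to Gi, stayed at or below 0.496 CPM as a mean in every class. It had 38 counts in CA1 and was tested only between CA1 and dentate granule, where it was higher in CA1 by 1.50 ± 0.37 (adjusted p 0.00311). Both genes passed the filter on low counts through CA1, where they are highest among the 4 classes compared, so these differences describe the levels only. Both models consist of a single exon, and no other gene of the annotation overlaps them. Exon length was 1.44 kb for Chrm4 and 1.599 kb for Chrm5, against 6.487 for Chrm1, 6.053 for Chrm2 and 6.253 for Chrm3. The RefSeq window before Chrm4 ended at 91922188, whereas its model starts at 91927249. Reads outside a model would not be counted, and the part of this in the low levels was not tested.

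Chrm2, the Gi-coupled receptor gene known from interneurons and cholinergic terminals, was concentrated in a pair of the named classes. Subicular and cortical excitatory nuclei held 181, 187, 197 and 228 CPM (198 ± 20.7) and inhibitory nuclei 164, 191, 168 and 151 CPM (168 ± 16.7), with overlapping ranges. The subicular and cortical level is that of the named clusters 11 and 21. Unnamed clusters 12, 19 and 26 also had markers of that class (Fn1, Rxfp1 or Tshz2) among their leading genes. Cluster 19 held 0.0931 ± 0.186 CPM of Chrm2, cluster 12 held 102 ± 36.0 and cluster 26 held 141 ± 21.9. CA1 held 0.586 ± 0.0793 CPM, dentate granule nuclei 0.570 ± 0.112 and CA3 2.05 ± 1.15. The log2 difference of inhibitory nuclei was 7.99 ± 0.08 from CA1 (adjusted p 2.91e-17), 6.19 ± 0.14 from CA3 (adjusted p 2.24e-14) and 8.15 ± 0.08 from dentate granule nuclei (adjusted p 1.28e-20), all by edgeR. Free RNA held 15.2 ± 6.24 CPM of Chrm2, and with the estimated free RNA subtracted the level was 174.5 CPM in inhibitory nuclei, 1.59 in CA3, 0.106 in CA1 and 0.0252 in dentate granule nuclei. The subtraction stops at 0 in each library, so a low level in CA1 or dentate granule nuclei cannot be told from background. Their values are read as near background, and the differences from them are set against background. Mossy nuclei (25.1, 56.1, 34.0 and 7.72 CPM) and OPC (38.7, 9.68, 27.8 and 31.1 CPM) lay between, with wide spread between libraries. After thinning, 36.4% ± 4.44 of subicular and cortical excitatory nuclei and 23.2% ± 1.50 of inhibitory nuclei had a Chrm2 UMI, against 0.242% ± 0.0386 in CA1 and 0.816% ± 1.08 in astrocytes (49.6%, 31.5%, 1.01% and 1.06% without thinning).

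In CA3 cluster 23 gave 119 of the 150 Chrm2 counts. Cluster 23 held 4.73, 4.63, 17.4 and 11.2 CPM, whereas the larger cluster 4 held 0.483 ± 0.110 CPM, and their ranges did not overlap. For the class as a whole CA1 was below CA3 (log2 difference −1.72 ± 0.27, adjusted p 0.000142, edgeR), but with classes by marker score the sign turned, at 1.22 ± 0.37 (adjusted p 0.0145).

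Inhibitory nuclei were divided further into 15 subclusters, of which 7 were named. The clusters and subclusters singled out here by number were chosen after their values were seen and are described without a test. The Pvalb type was subcluster 14 alone, with 58 nuclei (14, 13, 16 and 15 per library). For Chrm2 the Pvalb interneuron subcluster held 489, 403, 268 and 712 CPM (468 ± 186), Sst interneurons 85.0 ± 40.8, Vip interneurons 17.9 ± 11.6, Cck interneurons 14.3 ± 3.83 and Lamp5 interneurons 4.35 ± 2.55. The lowest Pvalb library lay above the highest library of each of these other 4 types. The highest level belonged to subcluster 9, an unnamed group of 58 nuclei (11, 23, 16 and 8 per library), with 2840, 2148, 2699 and 1191 CPM. Its leading genes were Adgrg6, Meis2, 9330158H04Rik, Chrm2, Ntng1 and Rmst. 9330158H04Rik overlaps Chrm2 on the opposite strand and was not left out of the clustering, and the strand used in counting is not given in the sources used here, so that reads of the pair cannot be told apart. Subclusters 0 (284, 362, 248 and 380 CPM), 7 (315, 309, 287 and 332 CPM) and 1 (213, 92.3, 111 and 189 CPM) each raised 2 Pvalb markers, fewer than the 3 needed for a name. The thinned share of nuclei with a Chrm2 UMI was 75.3% ± 10.5 in subcluster 9, 73.3% ± 15.7 in the Pvalb subcluster, 67.6% ± 8.08 in subcluster 7, 60.0% ± 9.62 in subcluster 0 and 37.2% ± 11.6 in subcluster 1, and 0% in subcluster 11, a Lamp5 group with 0 counts of Chrm2.

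Of the 5 named interneuron types, Chrm3 was highest in Cck interneurons. They held 2112, 2004, 1851 and 1858 CPM (1956 ± 126), Sst interneurons 1188 ± 193 and Vip interneurons 940 ± 56.6. Pvalb interneurons held 146, 141, 174 and 179 CPM (160 ± 19.2) and Lamp5 interneurons 204 ± 6.42. The 3 first-named types were apart from the other 2 in every library, and 99.4% ± 1.17 of Cck, 95.6% ± 1.90 of Vip and 92.1% ± 3.62 of Sst nuclei had a UMI after thinning. The Sst and Cck levels are those of single subclusters, 5 and 6. Unnamed subcluster 2, with 182 nuclei and 2 Sst markers raised, held 531 ± 68.1 CPM of Chrm3. Unnamed subcluster 3, with 198 nuclei and 2 Cck markers raised, held 857 ± 69.3 CPM. Of the named types, Chrm1 was lowest in Sst interneurons (9.20 ± 2.84 CPM) and highest in Pvalb interneurons (57.0 ± 11.3 CPM), with no overlap between these types. Subclusters 0, 7 and 1, which raised 2 Pvalb markers, held less Chrm1 than that (means of 23.8, 37.2 and 34.9 CPM). Those means lay below that of Cck interneurons (43.0 CPM).

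**Figure D2:**
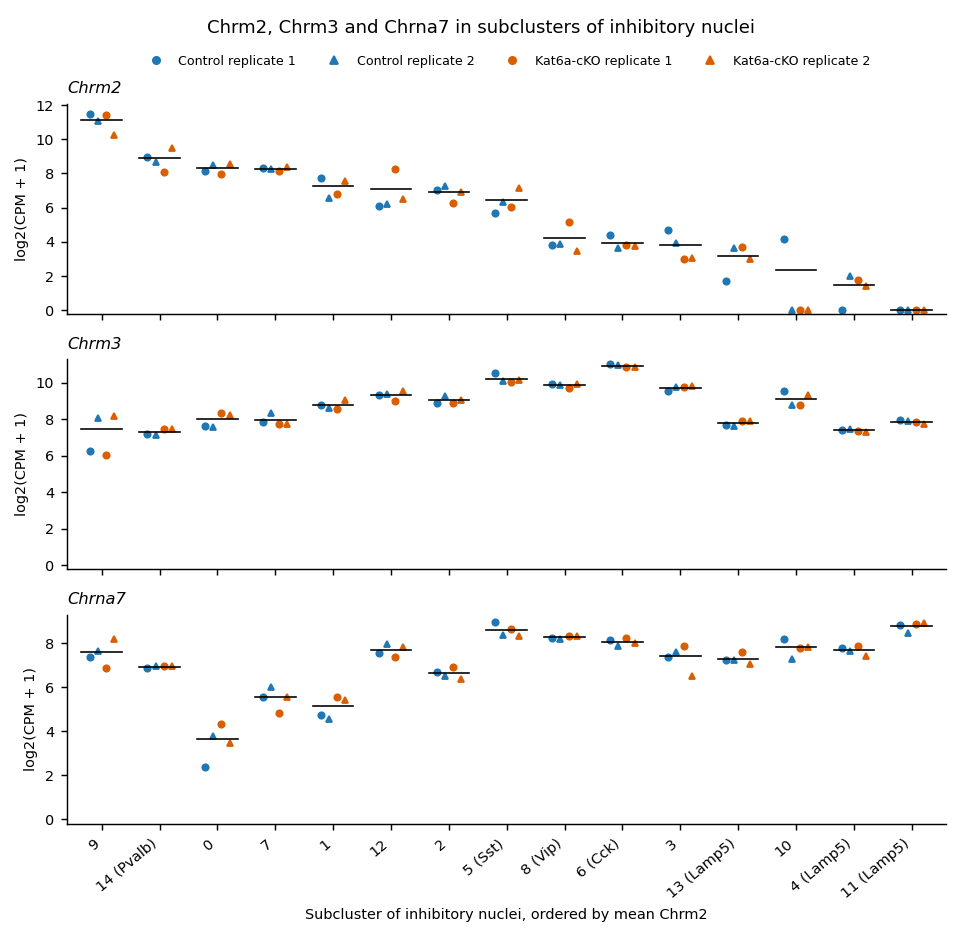
Level of Chrm2, Chrm3 and Chrna7 as log2(CPM + 1) in 15 subclusters of inhibitory nuclei, ordered by mean Chrm2, with 1 point per library (blue, Control; orange, Kat6a-cKO) and a line at the log2 of the mean CPM plus 1. Subcluster 9 and the Pvalb subcluster lead for Chrm2, the Cck subcluster leads for Chrm3, and Chrna7 is lowest in subcluster 0.

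Chrna7, the subunit gene of homomeric nicotinic channels, was highest in mossy cells. Mossy cells held 577, 499, 328 and 404 CPM (452 ± 109), above every other class in every library. CA1 held 262.5, 251.6, 299.4 and 248.0 CPM (265 ± 23.5), and CA2 (202 ± 41.9), immature dentate (195 ± 22.1) and inhibitory nuclei (188 ± 15.8) followed with overlapping ranges. CA3 held 158, 146, 141 and 117 CPM (141 ± 17.1) and dentate granule nuclei 161, 143, 137 and 113 CPM (138 ± 19.7), also overlapping. Subicular and cortical excitatory nuclei, where Chrm2 peaked, had 63.4 ± 13.5 CPM. CA1 was higher than CA3 by 0.91 ± 0.06 (adjusted p 2.2e-08) and higher than dentate granule nuclei by 1.03 ± 0.07 (adjusted p 1.01e-08) on the log2 scale, by edgeR. The log2 difference of CA3 from dentate granule nuclei was 0.11 ± 0.03 (adjusted p 0.0064), and it was 0.03 both with free RNA subtracted (adjusted p 0.476) and with no scaling beyond library size (adjusted p 0.491). Thinned shares of nuclei with a UMI were 82.7% ± 5.95 in mossy, 68.1% ± 1.88 in CA1, 44.7% ± 3.29 in CA3, 45.0% ± 4.52 in dentate granule and 5.12% ± 1.60 in astrocytes (99.5%, 93.6%, 88.8%, 68.5% and 5.93% without thinning), and free RNA held 71.0 ± 5.40 CPM.

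Small groups of nuclei departed from their class in Chrna7. Among dentate granule clusters, cluster 29, with 68 nuclei led by Mir670hg, Tll1 and Pcdh8, held 19.8, 26.7, 12.6 and 32.5 CPM, while the means of the other 4 clusters ran from 113 to 158 CPM. Chrm1 was not low there (127 ± 29.5 CPM). Among inhibitory nuclei, subcluster 0 held 4.25, 13.0, 19.0 and 10.3 CPM (11.6 ± 6.14), whereas Sst interneurons held 505, 331, 400 and 324 CPM (390 ± 83.8) and Lamp5 subcluster 11 held 453, 360, 472 and 489 CPM (443 ± 57.6). Unnamed subcluster 2, which raised 2 Sst markers, held 99.4 ± 16.7 CPM, and unnamed subcluster 3, which raised 2 Cck markers, held 170.5 ± 60.0 CPM. Vip interneurons stood at 312 ± 15.04 CPM, Cck at 270 ± 31.0 and Pvalb at 122 ± 4.52, so that the Pvalb type, high in Chrm2, was the lowest of the 5 named types in Chrna7. Its level is that of subcluster 14 alone. Subclusters 0, 1 and 7, which raised 2 Pvalb markers, held less Chrna7, at 11.6 ± 6.14, 34.3 ± 11.9 and 46.2 ± 14.6 CPM.

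Chrna5, the accessory nicotinic subunit gene, was highest in subicular and cortical excitatory nuclei and in CA1. Subicular and cortical excitatory nuclei held 30.3, 32.5, 26.1 and 30.8 CPM (29.9 ± 2.73) and CA1 20.1, 22.0, 17.4 and 23.7 CPM (20.8 ± 2.72), with no overlap between these classes or with the next, immature dentate nuclei (7.42 ± 5.04). CA3 held 0.225 ± 0.0667 CPM, CA2 0.331 ± 0.383 and dentate granule nuclei 0.513 ± 0.192. The log2 difference of CA1 was 6.53 ± 0.14 from CA3 (adjusted p 6.62e-13) and 5.40 ± 0.14 from dentate granule nuclei (adjusted p 6.17e-13), by edgeR. With free RNA subtracted, Chrna5 was 0.118 CPM in CA3 and 0.331 in dentate granule nuclei. CA3 held 16 Chrna5 counts, too few for a test by genotype, so the gene entered the comparison with CA3 through CA1 and that difference describes the levels only. A UMI was seen in 9.67% ± 1.22 of thinned CA1 nuclei and in 0.131% ± 0.262 of CA3 nuclei, with 0.248% ± 0.495 in astrocytes (27.2%, 0.585% and 0.248% without thinning). Within the subicular and cortical class, cluster 11 held 39.0 ± 5.10 CPM and cluster 21 held 13.5 ± 8.01 CPM. Unnamed clusters 6, 15, 19 and 24 each raised 3 CA1 markers, too few for a name. They held 3.13 ± 0.988, 10.6 ± 3.02, 7.74 ± 2.34 and 1.79 ± 0.526 CPM of Chrna5, so the CA1 level is that of the named CA1 clusters.

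Chrna4 and Chrnb2, the pair of the high-affinity channel, were both scarce and did not share a pattern. Chrna4 held 15.02, 15.6, 9.81 and 15.6 CPM in subicular and cortical excitatory nuclei and 11.3 ± 3.17 CPM in OPC, with overlapping ranges, and at most 2.68 CPM as a mean in the other classes. It was higher in CA1 than in CA3 by 1.10 ± 0.20 (adjusted p 0.000435) and than in dentate granule nuclei by 0.74 ± 0.19 (adjusted p 0.00325), by edgeR. Chrnb2 ran from 0.827 to 4.09 CPM as a mean over the classes, every class overlapped its neighbour in the order, and it passed the threshold in 0 of 6 comparisons by edgeR (0 at an unadjusted p under 0.05), the only 1 of the 9 genes to pass in none. Chrnb2 overlaps Adar on the opposite strand. Free RNA held 3.825 ± 0.837 CPM of Chrnb2, inside the range of the class means, and the part of background in its even levels was not tested.

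**Figure D3:**
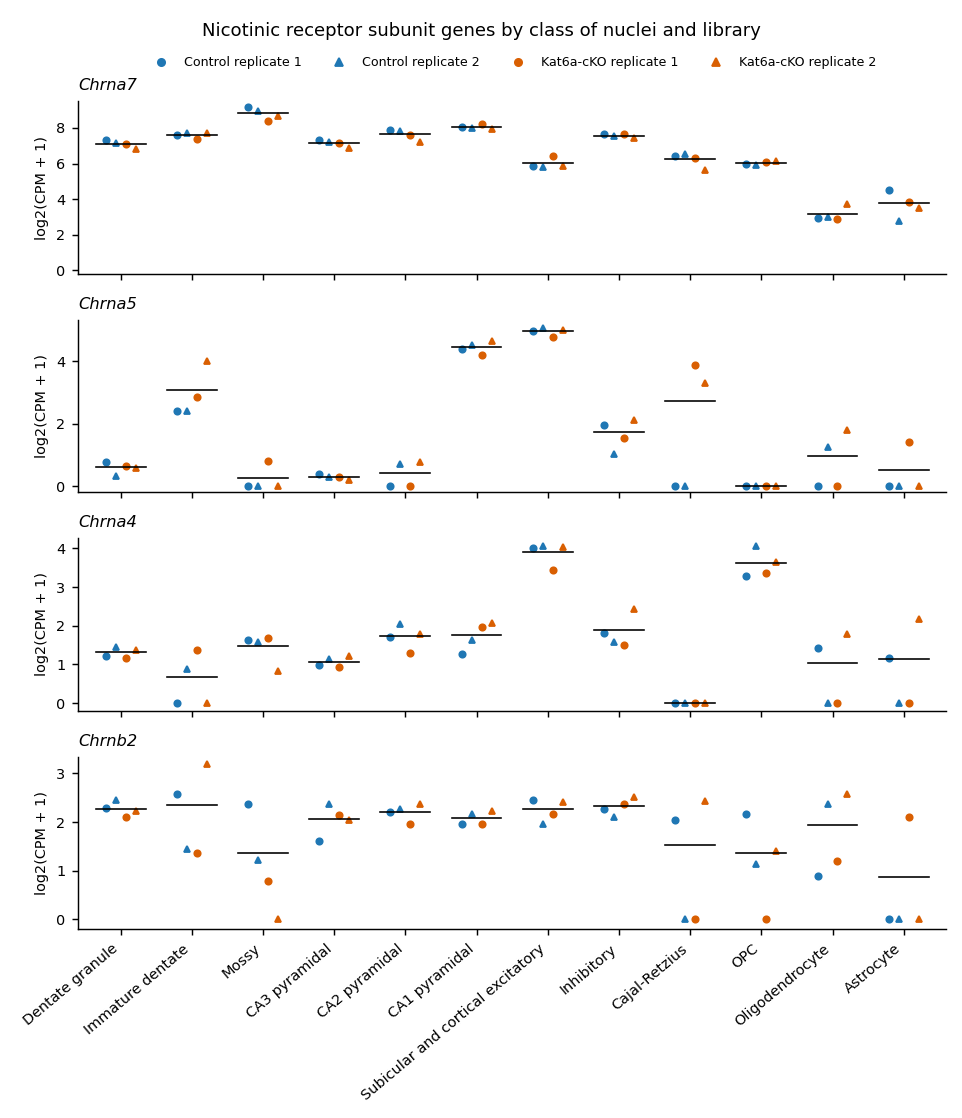
Level of Chrna7, Chrna5, Chrna4 and Chrnb2 as log2(CPM + 1) in 12 classes of nuclei, with 1 point per library (blue, Control; orange, Kat6a-cKO) and a line at the log2 of the mean CPM plus 1. Chrna7 is highest in mossy nuclei, Chrna5 in subicular and cortical excitatory and CA1 nuclei, Chrna4 in subicular and cortical excitatory nuclei and OPC, and Chrnb2 shows no class apart from its neighbour.

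The counts of receptor genes that passed between classes are to be read against the large share of all genes that passed, and they describe only the genes high enough to test. A gene that entered a test through the class where it is high had to differ: Chrm5 entered the 3 comparisons with CA1 through CA1, and so did Chrm4 the single comparison in which it was tested, while Chrna5 entered the 3 comparisons with CA3 through the other class. All of these are among the genes that passed. Between CA1 and CA3, 7 of 8 tested receptor genes passed, against 55.1% of all genes, with 6 higher in CA1 (27.6% of all genes) and 1 lower (27.6%). Between CA1 and dentate granule 7 of 9 passed (64.7%), 6 higher in CA1 (30.5%) and 1 lower (34.2%). Between CA3 and dentate granule 5 of 7 passed (67.8%), 3 higher in CA3 (32.7%) and 2 lower (35.1%). For inhibitory nuclei, 6 of 8 passed against CA1 (63.9%), 1 higher (33.5%) and 5 lower (30.4%), and 6 of 7 against CA3 (62.4%), 4 higher (32.6%) and 2 lower (29.9%). Against dentate granule 6 of 7 passed (70.8%), 5 higher in inhibitory nuclei (35.4%) and 1 lower (35.3%).

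The genes with the most similar pattern were named for each receptor gene by the Pearson correlation of log2(CPM + 1) over 16 classes and interneuron types, among 11727 genes. Chrm3 was closest to Gm26861 (r = 0.974), which overlaps Chrm3 on the opposite strand so that reads of this pair too cannot be told apart, and to Gprin3 (r = 0.928). Chrm1 was closest to Gm41505 (r = 0.917) and Prmt8 (r = 0.908), Chrm2 to Gm37795 (r = 0.892) and Gm15270 (r = 0.89), and Chrna7 to Apex2 (r = 0.899) and Cacna1b (r = 0.898). Chrna5 was closest to Kcnh7 (r = 0.801), Chrna4 to Ntn1 (r = 0.805), Chrnb2 to Stxbp2 (r = 0.816), Chrm5 to Snd1 (r = 0.82) and Chrm4 to C730034F03Rik (r = 0.806). The points share libraries, so these values describe and test nothing. Chrm4 and Chrm5 reached at most 0.496 and 0.706 CPM as a mean in any class, so their correlations rest on few counts.

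Whether receptor levels changed with genotype was asked class by class. No receptor gene passed the edgeR threshold in any class, in 63 tests over 12 fits (11 classes and all nuclei, Cajal-Retzius nuclei being too few to test). At an unadjusted p under 0.05 there were 12 of the 63. They were 2 of 4 in CA2 (7.26% of all genes at that mark), 2 of 6 in CA3 (8.06%), 2 of 7 in subicular and cortical excitatory (9.63%), 1 of 9 in CA1 (9.0%), 1 of 7 in dentate granule (9.91%), 1 of 3 in immature dentate (9.09%), 1 of 4 in mossy (9.1%), 1 of 2 in oligodendrocyte (5.68%) and 1 of 9 in all nuclei (10.2%), with 0 of 7 in inhibitory nuclei (6.59%) and 0 of 5 in OPC (7.7%). The lowest adjusted p was 0.0934. Of the 63 log2 fold changes 36 were above 0 and 27 below, with a median of 0.04. By class, 0 of 9 receptor genes passed in CA1 (0.158% of all genes tested), 0 of 4 in CA2 (0.0951%), 0 of 6 in CA3 (0.0324%), 0 of 7 in dentate granule (0.381%), 0 of 3 in immature dentate (0.0854%), 0 of 7 in inhibitory (0.0273%), 0 of 4 in mossy (0.714%), 0 of 7 in subicular and cortical excitatory (0.615%), 0 of 2 in oligodendrocytes (0.0129%), 0 of 5 in OPC (0.0342%) and 0 of 9 in all nuclei (0.0641%), and in astrocytes (0.0312%) none was high enough to test. DESeq2 passed 1 receptor gene, Chrm3 in CA2, and 0 in the other 11 fits. With replicate number as a block, 2 passed in CA2 by edgeR, Chrm3 (adjusted p 0.0168) and Chrna7 (adjusted p 0.0398). Both settings also passed more of all genes in CA2 than the main fit did, with the counts given below. With no filter on low counts, edgeR passed 3 in CA2 (Chrm2, Chrm3 and Chrna7) and 1 each in CA1 (Chrna4), CA3 (Chrm2), dentate granule (Chrna7), mossy (Chrna7) and oligodendrocytes (Chrm3). Of all genes, that setting passed 0.389% in CA2, 1.81% in CA1, 1.11% in CA3, 1.91% in dentate granule, 0.855% in mossy and 0.217% in oligodendrocyte nuclei.

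Chrm3 in CA2 and Chrna7 in mossy cells had the lowest adjusted p. In CA2 the Chrm3 level was 747 and 687 CPM in Control libraries against 892 and 947 CPM in Kat6a-cKO libraries, with no overlap. Its log2 fold change was 0.36 ± 0.07 (SE, adjusted p 0.0934 by edgeR and 0.0264 by DESeq2). Chrna7 in CA2 held 238.5 and 228.7 CPM in Control against 195.7 and 145.5 in Kat6a-cKO (log2 fold change −0.45 ± 0.12, adjusted p 0.273). In mossy cells Chrna7 held 577 and 499 CPM in Control against 328 and 404 in Kat6a-cKO (−0.52 ± 0.13, adjusted p 0.108). Both were without overlap between the groups. Thinned shares of nuclei with a UMI were 90.3% and 84.4% in Control against 91.7% and 94.1% in Kat6a-cKO for Chrm3 in CA2. For Chrna7 they were 69.4% and 68.8% against 59.3% and 43.1% in CA2, and 90.0% and 84.3% against 76.0% and 80.4% in mossy cells. These shares rest on 72 to 109 CA2 and 30 to 51 mossy nuclei per library. How many of all genes differ as much in their shares is not given here, so the shares have no background to be read against. Single libraries decided the side of the edgeR threshold: Chrm3 in CA2 passed without Control replicate 1 (0.43, adjusted p 0.00653) and without Kat6a-cKO replicate 1 (0.41, adjusted p 0.00341), and Chrna7 in CA2 without Kat6a-cKO replicate 1 (−0.67, adjusted p 0.000322). Chrna7 in mossy cells passed without Control replicate 2 (−0.64, adjusted p 0.000887) and without Kat6a-cKO replicate 2 (−0.65, adjusted p 0.00653). Without Control replicate 1 or Kat6a-cKO replicate 1 it did not (adjusted p 0.162 and 0.374 by edgeR). In those fits Chrm2 passed in mossy cells (−1.36, adjusted p 0.00105, and −2.44, adjusted p 1.59e-06), whose log2 fold change over all 4 libraries was −0.98 ± 0.46 (adjusted p 0.555, edgeR). With a minimum of 1000 UMIs and classes by marker score it was −1.74 and passed (adjusted p 0.031, edgeR). Its Control and Kat6a-cKO levels there overlapped. Chrm2 also passed in CA2 without Kat6a-cKO replicate 1 (3.90, adjusted p 0.0023, edgeR), a gene too low to test there with all 4 libraries. It held 0.910 and 0.316 CPM in Control against 1.09 and 8.99 in Kat6a-cKO, with 26 of its 32 counts in Kat6a-cKO replicate 2, and 7 of 391 CA2 nuclei had a UMI. These fits leave 1 library in a group, whose spread is taken from the group that keeps both, and they passed 0.334% to 0.746% of all genes in CA2 and 0.952% to 1.59% in mossy cells. Groups without overlap are common at 2 libraries each: 36.2% of genes at 1 CPM or more did not overlap in CA2 (3 of 6 receptor genes) and 37.1% in mossy cells (3 of 6). The same count was 1 of 6 receptor genes in CA1 (39.1% of all genes), 2 of 6 in CA3 (36.9%), 2 of 5 in dentate granule (39.7%), 2 of 6 in immature dentate (36.6%), 1 of 7 in inhibitory (35.4%), 2 of 7 in subicular and cortical excitatory (37.9%) and 1 of 7 in all nuclei (43.4%). In glia and Cajal-Retzius nuclei it was 0 of 5 in astrocytes (33.3%), 1 of 6 in OPC (35.6%), 2 of 6 in oligodendrocytes (32.9%) and 3 of 6 in Cajal-Retzius nuclei (28.7%).

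For Chrm3 the log2 fold change was −0.03 ± 0.07 in CA1 and 0.00 ± 0.07 in inhibitory nuclei. Chrna7 had log2 fold changes of −0.27 ± 0.11 in dentate granule (adjusted p 0.441), −0.22 ± 0.10 in CA3 (adjusted p 0.614) and 0.11 ± 0.10 in CA1 (adjusted p 0.811), where it was −0.05 without Kat6a-cKO replicate 1. Chrna4 in CA1 had 1.43 and 2.08 CPM in Control against 2.91 and 3.19 in Kat6a-cKO (0.82 ± 0.24, adjusted p 0.325), and thinned shares of 0.830% and 0.827% against 1.44% and 1.43%, where 2 of 338 astrocytes (0.592%) had a UMI and free RNA held 2.81 ± 1.63 CPM. Chrm2 in CA3, at 1.06 and 1.42 CPM in Control against 3.65 and 2.06 in Kat6a-cKO, had 1.20 ± 0.35 (adjusted p 0.328), with thinned shares of 0.710% or less against 1.32% or more, and its counts came mostly from cluster 23 as above. It passed without Control replicate 2 (1.40, adjusted p 0.0358, edgeR) and had 0.73 without Kat6a-cKO replicate 1.

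Chrm3 in subicular and cortical excitatory nuclei held 934 and 861 CPM in Control against 698 and 738 in Kat6a-cKO (log2 fold change −0.29 ± 0.09, adjusted p 0.206). These groups did not overlap, in a class where 37.9% of genes did not. The class also held 3.02% and 2.71% of nuclei in Control and 4.85% and 4.94% in the Kat6a-cKO libraries. By cluster, Chrm3 was 829 and 838 CPM in Control against 518 and 565 in Kat6a-cKO in cluster 11, and 1108, 909.5, 985.3 and 1156 CPM over the 4 libraries in cluster 21. The part of the share of nuclei in the level was not tested. In oligodendrocytes free RNA was estimated at 41.1% to 64.4% of counts, and Chrm3 with free RNA subtracted was 0 CPM. Free RNA held 330 ± 14.2 CPM of Chrm3, so such shares would carry more Chrm3 than was counted in any library. The estimate is thus too high for this gene, and 0 CPM is only the lowest value the subtraction could give. The largest fold change, for Chrm3 in these nuclei (2.49 ± 0.47, adjusted p 0.205), stood on 8.53, 15.4, 39.7 and 99.1 CPM. It passed in edgeR without Control replicate 1, Control replicate 2 or Kat6a-cKO replicate 1 (adjusted p 0.00618, 0.0295 and 0.0117), but not without Kat6a-cKO replicate 2 (0.254).

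**Figure D4:**
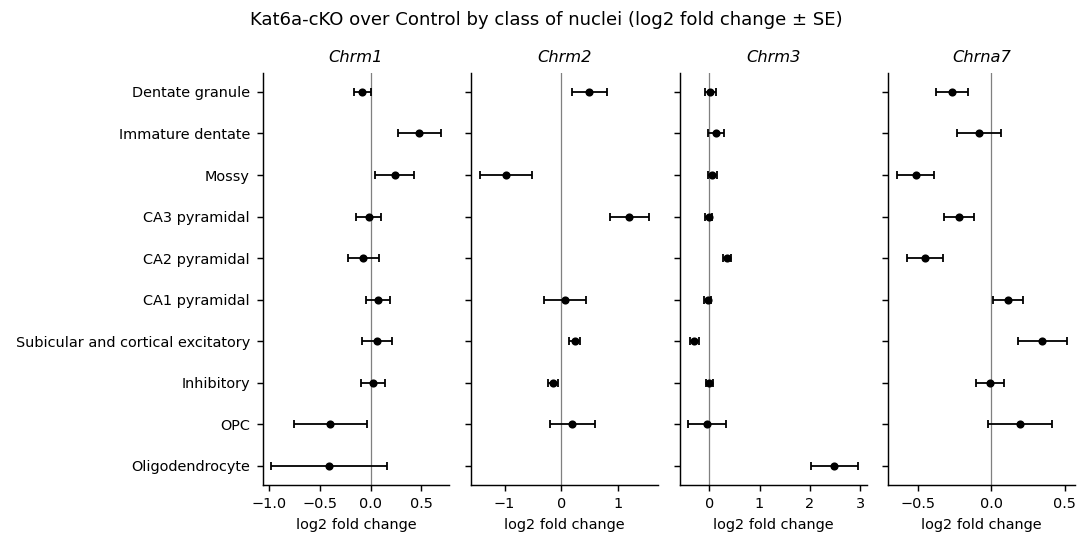
Log2 fold change of Kat6a-cKO over Control with its SE (n = 2 libraries per group) for Chrm1, Chrm2, Chrm3 and Chrna7 in the classes where the gene was tested. No point passed the adjusted threshold, and Chrna7 is below 0 in dentate granule, mossy, CA3, CA2, immature dentate and inhibitory nuclei and above 0 in CA1, in subicular and cortical excitatory nuclei and in OPC.

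Whether the genotype effect differed between classes was tested directly, by the interaction of class and genotype with the library as a block. Within libraries, the Chrna7 level of CA1 over that of dentate granule nuclei was 1.63 and 1.76 in Control against 2.18 and 2.19 in Kat6a-cKO. The groups did not overlap, and the difference of the fold changes was 0.41 ± 0.06 on the log2 scale (adjusted p 0.0122, edgeR). For CA3 over CA1 the ratio was 0.602 and 0.58 in Control against 0.472 and 0.473 in Kat6a-cKO (−0.35 ± 0.06, adjusted p 0.0139). The ratio of CA3 over dentate granule nuclei, 0.983, 1.02, 1.03 and 1.04, gave 0.03 ± 0.06 (adjusted p 0.985). Chrna7 was 1 of 9 receptor genes to pass for CA1 and dentate granule (0.259% of all genes) and 1 of 8 for CA3 and CA1 (0.347%), and 0 of 7 passed for CA3 and dentate granule (0.0743% of all genes by edgeR), where 0 of 7 also had an unadjusted p under 0.05 (5.42% of all genes). At that mark there were 3 of 9 for CA1 and dentate granule (7.85% of all genes), namely Chrna7, Chrna4 (0.95 ± 0.27, adjusted p 0.309, edgeR) and Chrm1 (0.18 ± 0.07, adjusted p 0.507), and 1 of 8 for CA3 and CA1 (7.04%). DESeq2 was not run for the interaction.

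Both calls were lost when classes were set by marker score (0.30, adjusted p 0.395, and −0.32, adjusted p 0.236). The call between CA3 and CA1 was also lost without Kat6a-cKO replicate 1 (−0.31, adjusted p 0.123) and without Kat6a-cKO replicate 2 (−0.32, adjusted p 0.193), while that between CA1 and dentate granule held in each of those fits. In each of the 3 CA1 clusters Kat6a-cKO replicate 1 was the highest library, at 301.8, 280.7 and 323.6 CPM of Chrna7.

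**Figure D5:**
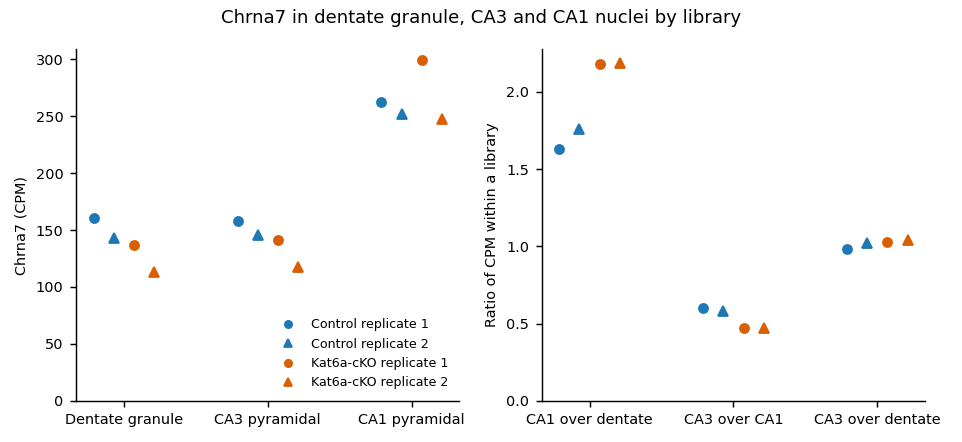
Left, Chrna7 level in CPM in dentate granule, CA3 and CA1 nuclei for each library (blue, Control; orange, Kat6a-cKO). Right, ratio of Chrna7 CPM between classes within each library: CA1 over dentate granule is 1.63 and 1.76 in Control against 2.18 and 2.19 in Kat6a-cKO, and CA3 over dentate granule is close to 1 in all 4 libraries.

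Genes that act with these receptors were followed as lists: 12 other nicotinic subunits, 7 enzymes and transporters of the cholinergic synapse, 9 chaperones and prototoxins of nicotinic receptors, 18 genes of Gq coupling and 21 of Gi coupling. By genotype, 1 gene of these lists passed the edgeR threshold in any fit. It was Plcb4, a phospholipase C gene that acts after Gq, which fell in subicular and cortical excitatory nuclei (264 and 302 CPM in Control, 172 and 183 in Kat6a-cKO, log2 fold change −0.64 ± 0.10, adjusted p 0.00572). In edgeR the call was lost with classes by marker score (−0.46, adjusted p 0.122) and without Kat6a-cKO replicate 1 (−0.61, adjusted p 0.0799). By cluster, Plcb4 held 385 and 422 CPM in Control against 240 and 232 in Kat6a-cKO in cluster 11, and 63.0, 45.0, 64.9 and 63.6 CPM over the 4 libraries in cluster 21. The class made up a larger share of nuclei in Kat6a-cKO, as given above, and the part of that share in the level was not tested. Plcb4 was 1 of 17 Gq genes tested there, where 0.615% of all genes passed, and 6 of those 17 had an unadjusted p under 0.05 (9.63% of all genes in this class). The median log2 fold change of the Gq list was 0.02 in CA1 and −0.01 in subicular and cortical excitatory nuclei, where that of all genes was 0.00, and the median of the Gi list was 0.04 in CA1. As for levels, Chat, which makes acetylcholine, did not exceed 0.86 CPM as a mean in any class, and Slc18a3, its vesicular transporter, had 0 CPM in every class. Among the other nicotinic subunits Chrna3 reached 5.28 CPM in subicular and cortical excitatory nuclei, the class that led for Chrna5, which lies beside it on chromosome 9. The prototoxin gene Lypd6b reached 106 CPM in inhibitory nuclei, and Prima1, the membrane anchor of acetylcholinesterase, 75.9 CPM in oligodendrocytes.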

How the data were processed

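Gene by barcode matrices of 4 libraries of single nuclei (10x Chromium) were used, 2 per genotype, and their values are whole UMI counts as deposited by the authors, with no normalization. The build mm10 and Seurat 4.0.1 are named per the submitters' processing notes, while the aligner, the counting of introns and the strand used are not given in the sources used here. The 9 receptor genes and the gene lists were chosen with earlier results of these data known. Barcodes with at least 5000 UMIs were kept, doublets were called per library with Scrublet (expected rate 0.06) and removed, and nuclei were clustered in scanpy 1.11.5 on 2000 variable genes, 30 components and 15 neighbours (Leiden resolution 1, and 0.4 within inhibitory nuclei), without the receptor genes and listed genes. A cluster was named where at least 50% and at least 3 of a class's markers were raised 2-fold. The thresholds for naming and the resolution within inhibitory nuclei were set after the data were seen.

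Counts were summed per class and library and tested with edgeR 4.0.16 (quasi-likelihood, TMM, filterByExpr, Benjamini-Hochberg adjustment over all genes, threshold 0.05) in R 4.3.3, for classes with at least 30 nuclei in every library. Comparisons between classes and their interaction with genotype had the library as a block. The fitting code was tested on simulated data. DESeq2 1.42.0, other filters and scaling, a replicate block, classes by marker score, a minimum of 1000 UMIs, subtraction of free RNA (the profile of barcodes of 10 to 100 UMIs) and leaving out each library were the alternatives. Classes by marker score mixed nuclei of several clusters. Of nuclei scored as CA2, 313 were in the CA2 cluster and 1075 in dentate granule clusters. Of those scored as CA1, 5192 were in CA1 clusters and 1221 in unnamed clusters. Shares of nuclei came from nuclei thinned to 5000 UMIs. Library totals of 171323466 to 186897245 counts set the precision, and floors and intervals cover counting error only. All 9 receptor genes were described, and for each the 2 genes with the highest correlation over classes were chosen among genes reaching 10 CPM, of which 1 or both are named.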

Additional observations from a re-analysis of the deposited data

Results flagged for a closer look

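The genotype effect on Chrna7 differed between classes when the difference itself was tested, as an edgeR interaction term (library blocked). For CA1 against dentate granule nuclei the log2 fold changes differed by 0.41 ± 0.06 (SE, adjusted p 0.0122). For CA3 against CA1 they differed by -0.35 ± 0.06 (adjusted p 0.0139). Both calls were lost with classes by marker score (0.30, adjusted p 0.395, for CA1 against dentate granule and -0.32, adjusted p 0.236, for CA3 against CA1, edgeR). The call for CA3 against CA1 was also lost without Kat6a-cKO replicate 1 (-0.31, adjusted p 0.123) or Kat6a-cKO replicate 2 (-0.32, adjusted p 0.193). On its own, the Chrna7 change in CA1, CA3 and dentate granule nuclei did not pass in the fits over all libraries, except in dentate granule nuclei with no filter on low counts (adjusted p 0.0446). The libraries are 2 per genotype, and what lies behind the difference was not tested.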

How the results depend on the processing

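With a count of 0 receptor genes passing by genotype in every class, fits with no filter on low counts passed 1 in CA1, 3 in CA2, 1 in CA3, 1 in dentate granule, 1 in mossy and 1 in oligodendrocyte nuclei, and the replicate block passed 2 in CA2 and DESeq2 1 in CA2. A minimum of 1000 UMIs with classes by marker score passed 1 (Chrm2) in nuclei scored as mossy, a class that mixed several clusters. The count of all genes passing there is not given here, so that call has no background to be read against. With no filter the count of all genes passing was 508 in CA1, 85 in CA2, 300 in CA3, 553 in dentate granule, 174 in mossy and 41 in oligodendrocyte nuclei. Leaving out 1 library in turn gave 0 to 3 in CA2, 0 to 1 in CA3, 1 to 1 in mossy (Chrna7 in the fits without a replicate 2, Chrm2 in those without a replicate 1) and 0 to 1 in oligodendrocyte nuclei, with 37 to 83 of all genes passing in CA2, 3 to 318 in CA3, 92 to 155 in mossy and 2 to 41 in oligodendrocyte nuclei. The replicate numbers were not shown to pair libraries: same-numbered libraries correlated in their deviations at -0.03 to 0.149. With the replicate block the count of all genes passing went from 26 to 181 in CA1, from 5 to 190 in CA3, from 66 to 192 in dentate granule, from 10 to 48 in CA2, from 75 to 238 in subicular and cortical excitatory, from 4 to 38 in inhibitory, from 2 to 41 in astrocyte, from 14 to 764 in all nuclei, from 8 to 0 in immature dentate nuclei and from 3 to 1 in OPC. With DESeq2 it was 123 in CA1, 17 in CA2, 30 in CA3, 216 in dentate granule, 13 in inhibitory, 49 in subicular and cortical excitatory, 0 in immature dentate, 0 in astrocyte, 1 in OPC and 473 in all nuclei. Between CA3 and dentate granule, 3 receptor genes passed with free RNA subtracted in place of 5. In the main fit 67.8% of all genes passed there. The share after subtraction is not given here, so whether the drop is particular to the receptor genes cannot be seen. In the interaction test, classes by marker score gave 0 for CA3 against CA1 and 0 for CA1 against dentate granule, and leaving out a library gave 0 to 1 for CA3 against CA1. The sign turned for Chrm2 between CA1 and CA3 by marker score (1.22), for Chrna7 by genotype in CA1 without Kat6a-cKO replicate 1 (-0.0485, with up to 0.262 when another library was left out) and for the Chrna7 interaction of CA3 and dentate granule by marker score (-0.0246). The cause of these changes was not tested. Of the fold changes between classes, 284 of the alternative values kept direction and side of the threshold, 8 lost the threshold and 1 reversed. Of those by genotype, 151 kept both, 22 gained the threshold, 4 lost it and 1 reversed. For levels in CPM, 216 alternative values stayed within the SD and 108 moved beyond it. For shares of nuclei, 38 values without thinning stayed within the SD and 70 moved. With 2 libraries per group, genes under 1 CPM, such as Chrm4 and Chrm5, rest on few counts.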

Other observations

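Nuclei in clusters without a name also held receptor transcripts. Cluster 26, with 339 nuclei led by Npsr1, had 141 ± 21.9 CPM of Chrm2 (SD over 4 libraries of both genotypes), and 41.3% ± 4.23 of its nuclei had a Chrm2 UMI after thinning. Cluster 19, with 440 nuclei, was led by Fn1 and Rxfp1, markers of the subicular and cortical class. There 98.1% ± 2.38 of thinned nuclei had a Chrm3 UMI and 15.1% ± 1.79 a Chrna7 UMI. Clusters 6, 15, 19 and 24, each with 3 CA1 markers raised, held means of 488, 645, 1203 and 259 CPM of Chrm3. The named CA1 class held 1578 CPM.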
